A study of Mus musculus with 12 samples.

Results

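The genes described here encode the proteins that make microRNAs (miRNAs) and carry out their function. They are 10 genes chosen by name: Drosha, Dgcr8, Dicer1, the Argonaute genes Ago1, Ago2, Ago3 and Ago4, and the GW182 genes Tnrc6a, Tnrc6b and Tnrc6c. All 10 were found among the 23781 gene symbols of the count tables, 9 of them with at least 1 count. RNA from the hippocampi of 12 male C57BL/6 mice was sequenced, 3 mice in each of 4 groups. Every mouse had been injected bilaterally into the hippocampus at an age of 10 weeks with an AAV5 vector, and the tissue was taken 10 weeks later. In the miR-9 experiment the vector carried GFP together with a miR-9 sponge (miR-9sp) or GFP alone (GFP Ctrl). In the miR-34 experiment it carried GFP together with a miR-34 sponge (miR-34sp) or, in other mice, GFP alone. A sponge is a transcript with repeated binding sites that holds a miRNA family away from its targets. The comparisons ask whether holding back a single miRNA family moved the transcripts of the machinery that all miRNAs share.

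The vectors used the synapsin promoter, which is active in neurons, whereas the RNA came from whole hippocampi. The labels give the cell type as hippocampal neurons, but the summed level of 5 astrocyte markers was 1220 to 1440 TPM over the 4 groups, beside 2950 to 4150 TPM for 6 neuron markers. TPM is a level corrected for transcript length and scaled to the same sum in every mouse. Neurons that the vector did not reach and all glial cells therefore contribute to every value. In such bulk tissue, fewer cells of a type and less RNA per cell cannot be told apart. For 3 of the GFP Ctrl mice the labels do not say to which experiment they belong, and they were taken as controls of miR-9sp, since according to the methods every experiment had 3 controls. The labels number the mice, which are taken as separate animals. Sequencing was deeper for the miR-9 experiment, with 17279620 to 24428477 counts in a mouse, than for miR-34, with 11029604 to 16934133. The 10 genes together took 0.0883% to 0.0944% of the counts in the first and 0.0858% to 0.0915% in the second.

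As background, a miRNA gene is transcribed into a long primary transcript. In the nucleus the Microprocessor, made of the nuclease DROSHA and its RNA-binding partner DGCR8, cuts out a hairpin. In the cytoplasm the nuclease DICER1 cuts the hairpin to a short duplex, and one strand is loaded into an Argonaute protein, the core of the RNA-induced silencing complex (RISC). Argonaute finds target mRNAs through the seed of the miRNA, and a GW182 protein bound to it recruits the enzymes that shorten the poly-A tail and remove the cap. AGO2 is the Argonaute protein of mammals that is best known for cutting a perfectly matched target itself. Conditional loss of Dicer1 in neurons is widely used to remove miRNAs from the brain.

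The mature sequences of the sponged families show which bases a target has to match. They were taken from RefSeq, with the seed, bases 2 to 8, in capitals.
mmu-miR-9-5p: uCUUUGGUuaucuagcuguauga
mmu-miR-34a-5p: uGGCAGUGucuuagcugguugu
mmu-miR-34b-5p: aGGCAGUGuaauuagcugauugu
The miR-34 members shown share 1 seed, so that a site for one is a site for the other, and miR-9 has another seed. The sequence of miR-34c-5p, the remaining member of that family, is not shown here.

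The 3′ UTR of each member was searched on the transcript strand for matches to these seeds. The longest 3′ UTR that GENCODE M1 annotates for the gene on NCBIM37 (mm9) was used. An 8mer was ACCAAAGA for miR-9 and CACTGCCA for miR-34. The shorter matches were ACCAAAG (7mer-m8) and CCAAAGA (7mer-A1) for miR-9, and CACTGCC and ACTGCCA for miR-34. A site that was part of an 8mer was counted once, as the 8mer. No member held an 8mer of miR-9, and 4 of 10 held a shorter match of it, namely Ago4, Dicer1, Tnrc6a and Tnrc6b. For miR-34, 2 members held an 8mer, Ago2 and Tnrc6b, and 5 of 10 held a match of any kind, the others being Ago3, Ago4 and Dicer1. An 8mer of miR-34 was held by 6.02% of all tested genes with an annotated 3′ UTR, and by 12.1% of those with 2000 bases or more. Among all tested genes with an annotated 3′ UTR, 22.7% held a match of any kind to miR-9 and 23.2% one to miR-34. Long 3′ UTRs hold more matches, and among genes with 2000 bases or more the shares were 45.1% and 43.6%. The median 3′ UTR of the members was 3766 bases, beside 1187 bases for all tested genes. Ago1, Dgcr8, Drosha and Tnrc6c held no match to either family, which says only that these letters are not in the annotated window.

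The sites below are the miR-34 8mers, the miR-34 match in Ago3 and the miR-9 matches in Tnrc6a and Dicer1, shown because the values of these genes are set beside them. Each is a stretch of 30 bases of the transcript with the match in capitals.
Ago2, miR-34 8mer: aggccacagggCACTGCCAgtgaggagact
Tnrc6b, miR-34 8mer: gcagagcagagCACTGCCAaggccagaggt
Ago3, miR-34 7mer-m8: gctagtttactCACTGCCcttataccttaa
Tnrc6a, miR-9 7mer-m8: tttttccaaaaACCAAAGgtagctttgaaa
Dicer1, miR-9 7mer-m8: ttgccagagtcACCAAAGctgtgctctctt
On mm9 the capitals lie at chr15:72933986-72933993 (minus strand) for Ago2, chr15:80760903-80760910 (plus strand) for Tnrc6b, chr4:126021687-126021693 (minus strand) for Ago3, chr7:130338632-130338638 (plus strand) for Tnrc6a and chr12:105928823-105928829 (minus strand) for Dicer1. All of them are in the 3′ UTR of the gene. A match is a description of the letters and was not tested as a site.

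Both genes of this set with 2 RefSeq entries had few counts or none, and their values cannot be read as low expression. Drosha, which lies at chr15:12754570-12865045 on the plus strand, has the entries NM_001130149 and NM_026799, whose lengths of 4571 and 4567 bases differ by 4 bases. Both entries were listed at 0 in all 12 mice. Tnrc6b, at chr15:80590016-80771516 on the plus strand, has the entries NM_144812 (17333 bases) and NM_177124 (17125 bases), with 13 to 34 and 2 to 18 counts per mouse. The other 8 members have 1 entry each. The rule for reads that match several entries is not given in the sources used here. Genes with 2 entries of nearly equal length were often listed at 0 throughout the table.

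Of the 15883 coding genes with 1 entry, 14.8% were at 0 in all 12 mice. Among the 255 coding genes with 2 entries whose lengths were within 10 bases of each other, as for Drosha, 173 were at 0, which is 67.8%. Only 8.63% of these 255 genes had a mean above 10 raw counts, against 65.6% of the genes with 1 entry. For Drosha no fold change is given, and Tnrc6b is treated separately below.

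**Figure D1:**
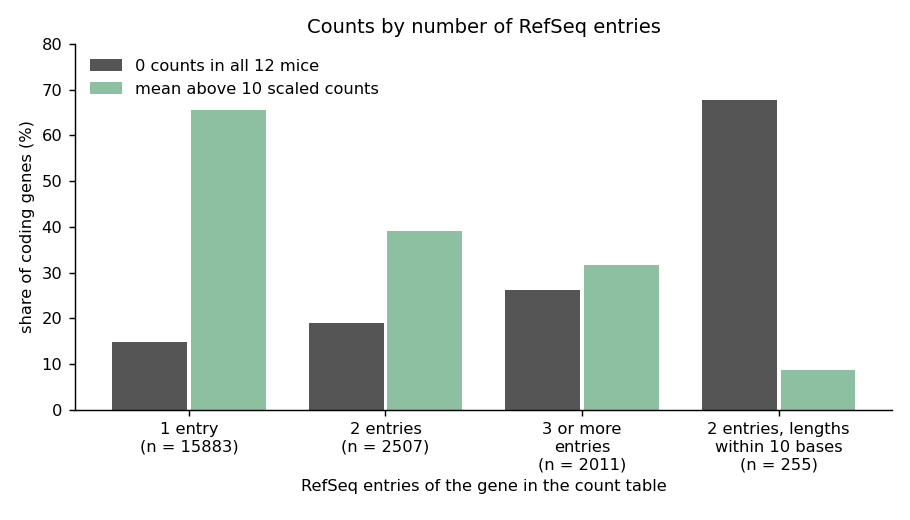
Share of coding genes (%) that were at 0 in all 12 mice (dark bars) or had a mean above 10 raw counts (light bars). The legend calls these counts scaled, but they were not scaled. Genes are grouped by their number of RefSeq entries in the count table. Genes with 2 entries of nearly equal length stand apart, with 67.8% at 0 against 14.8% of genes with 1 entry.

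On mm9, as annotated by GENCODE M1, Ago3 (chr4:126008948-126106800), Ago1 (chr4:126112256-126145878) and Ago4 (chr4:126166785-126210716) lie next to each other on the minus strand, while Ago2 is at chr15:72932055-73015377, also on the minus strand. Dgcr8 is at chr16:18254041-18289342 and Dicer1 at chr12:105925952-105990162, both on the minus strand. Tnrc6a is at chr7:130267770-130338802 and Tnrc6c at chr11:117515603-117624753, both on the plus strand. The values below are for whole genes, not for single exons.

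The members with 1 entry were all well detected. The lowest count was 243, for Ago4 in a miR-34sp mouse, and the highest 4946, for Tnrc6c in a GFP Ctrl mouse of the miR-9 experiment. Per length, Ago1 was the highest with a mean of 70.2 ± 4.81 TPM (SD, n = 12). Tnrc6c followed with 65.8 ± 3.81 TPM, Ago2 with 47.4 ± 5.71 TPM and Tnrc6a with 45.8 ± 4.13 TPM. The 2 processing genes lay in the middle of the order, Dicer1 at 31.0 ± 1.32 TPM and Dgcr8 at 28.4 ± 2.87 TPM. Ago3 at 17.4 ± 1.90 TPM and Ago4 at 10.3 ± 0.974 TPM were the lowest of the members with 1 entry. The median of all 12835 genes tested over the 12 mice was 23.7 TPM, so that Ago3 and Ago4 lay below it and the other 6 above. Tnrc6b was listed at 0.322 ± 0.0838 TPM.

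Neighbours in this order were compared within each mouse by an exact sign-flip permutation test, two-sided, with Benjamini-Hochberg adjustment over 8 pairs. Of the 8 pairs, 7 differed in their listed TPM. The test measures only how steady the order was between mice, and a shift of a gene's TPM common to all libraries was not tested. Ago1 was above Tnrc6c in 11 of 12 mice by a mean of 0.09 on the log2 scale (adjusted exact p = 0.0145). Dicer1 was above Dgcr8 in 9 of 12 mice by 0.14 (adjusted exact p = 0.0124). Ago2 was above Tnrc6a in 9 of 12 mice by 0.05 ± 0.09 (SD), which was within the spread between mice (adjusted exact p = 0.0762). Without miR-34sp mouse 3, that pair differed too. In the other 5 pairs the order was the same in all 12 mice, with an exact p of 0.0004883, the smallest that 12 mice allow. The pair of Ago4 and Tnrc6b rests on the Tnrc6b entries described above.

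Within each experiment the means had the same order, but fewer neighbours differed, 6 of 8 in each, in tests added after the levels had been seen. Dicer1 was above Dgcr8 in 6 of 6 mice of the miR-34 experiment by 0.21 (adjusted exact p = 0.0417) and in only 3 of 6 mice of the miR-9 experiment by 0.07 (adjusted exact p = 0.344). After miR-9sp both genes had a mean of 31.2 TPM. Ago1 was above Tnrc6c in 6 of 6 mice of the miR-9 experiment by 0.14 (adjusted exact p = 0.0417) and in 5 of 6 mice of the miR-34 experiment by 0.04 (adjusted exact p = 0.393). Ago2 and Tnrc6a did not differ beyond their spread in either experiment.

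**Figure D2:**
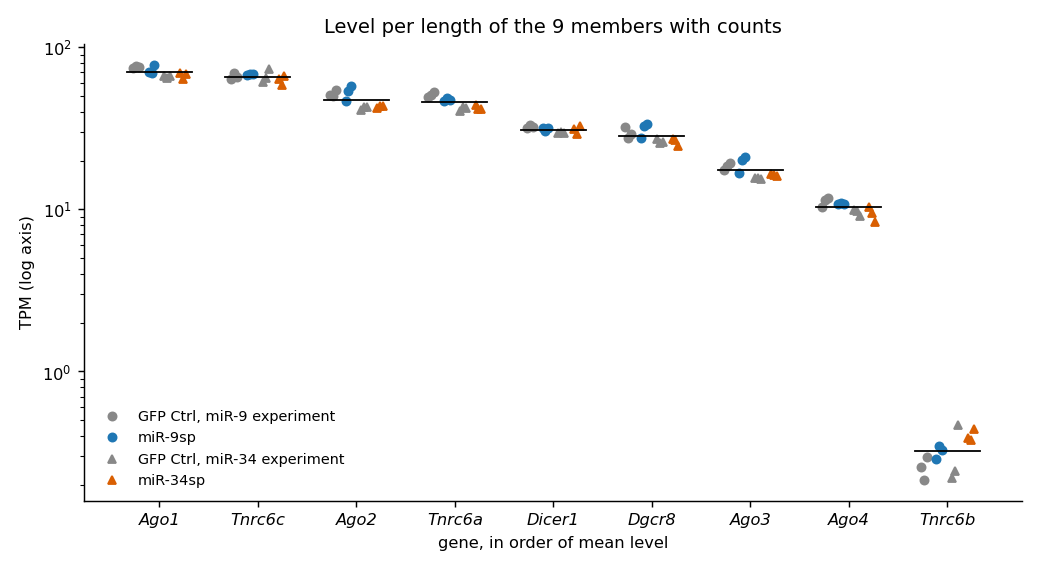
TPM (log axis) of the 9 members with counts in each of the 12 mice, in order of the mean (black lines). Circles are mice of the miR-9 experiment and triangles mice of the miR-34 experiment, in grey for GFP Ctrl. The mean fell from 70.2 TPM for Ago1 to 10.3 TPM for Ago4, and Tnrc6b at 0.322 TPM is the gene with 2 RefSeq entries.

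The balance among the Argonaute genes was much the same in every mouse. Ago1 made up 48.4% ± 1.62 (SD, n = 12) of the summed Argonaute TPM, Ago2 32.5% ± 1.36, Ago3 12% ± 0.493 and Ago4 7.08% ± 0.427. The share of Ago1 ranged from 44.9% to 50.2% and that of Ago4 from 6.16% to 7.56%. Between sponge and GFP Ctrl mice of the same experiment the Ago1 share differed by -1.40 percentage points for miR-9sp and by -0.123 points for miR-34sp. No share differed between sponge and GFP Ctrl mice in an exact permutation test (lowest adjusted exact p = 0.6 over 12 tests of Argonaute and GW182 shares). With 3 mice against 3 such a test cannot give a p below 0.1, so only the sizes are informative here. Reads that match more than one Argonaute gene could have been split or dropped in the counting, and this was not tested.

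**Figure D3:**
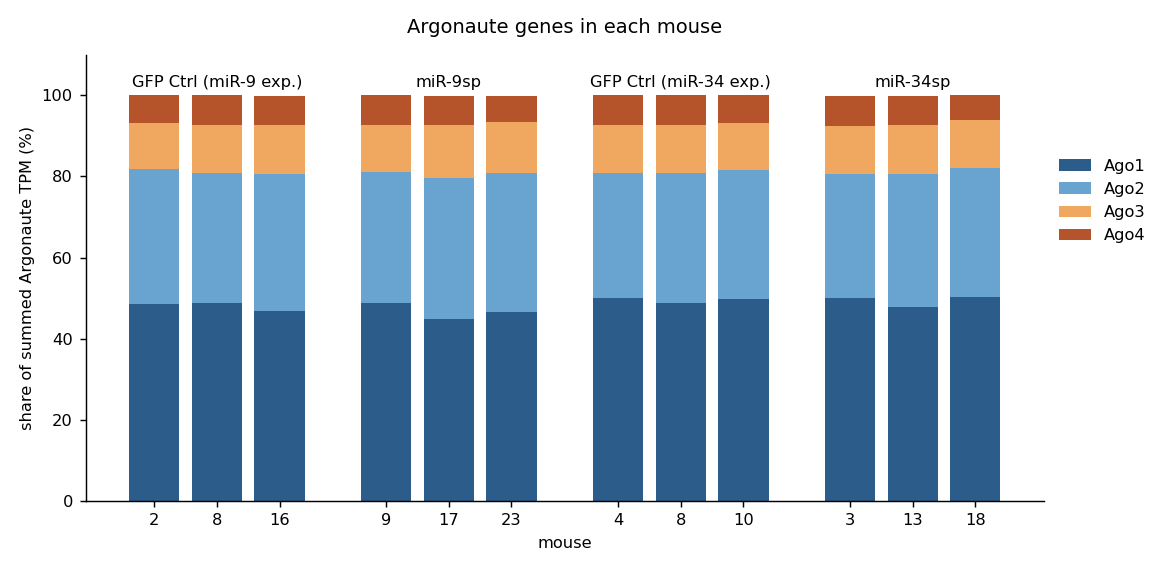
Share (%) of each Argonaute gene in the summed Argonaute TPM of each mouse, with mice named by their number in the labels. Ago1 holds 44.9% to 50.2% and Ago2 30.4% to 34.8% over the 12 mice.

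Of the GW182 genes with 1 entry, Tnrc6c was above Tnrc6a in all 12 mice. The ratio of their TPM was 1.30 ± 0.0685 (SD, n = 3) in GFP Ctrl mice of the miR-9 experiment and 1.42 ± 0.0256 after miR-9sp. It was 1.58 ± 0.134 in GFP Ctrl mice of the miR-34 experiment and 1.48 ± 0.0943 after miR-34sp. After miR-9sp the values of 1.39, 1.44 and 1.44 lay above the GFP Ctrl values of 1.24, 1.29 and 1.37. After miR-34sp the values of 1.41, 1.45 and 1.59 overlapped with the GFP Ctrl values of 1.49, 1.51 and 1.73. The corresponding shares had an exact p of 0.1 and 0.5, before adjustment.

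After miR-9sp injection, none of the 9 tested members passed the test for a difference from GFP Ctrl. Levels are given from here on as CPM, which are counts brought to a common library size by TMM within an experiment, and differences as log2 fold changes from edgeR's quasi-likelihood test with Benjamini-Hochberg adjustment over all genes. The share of all 13045 tested genes that passed an adjusted p of 0.05 was 0%, and 2 of them passed with DESeq2, neither a member. At an unadjusted p under 0.05 the count was 0 of 9 members, beside 4.73% of all tested genes. Tnrc6a was just above that limit and passed it with total counts (edgeR's unadjusted p = 0.0206) and in the model of 12 mice (unadjusted p = 0.0385), so that this count was 1 of 9 there. Of the 8 members with 1 entry, 4 had a log2 fold change above 0, as had 49.7% of all tested genes, and the values ranged from -0.09 to 0.09, with a median of 0.000685 beside -0.000615 for all tested genes.

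Tnrc6a, a GW182 scaffold with a shorter miR-9 match, was the member with the lowest p. It was at 140.8, 143.8 and 146.8 CPM after miR-9sp and at 148.2, 151.8 and 158.3 CPM in GFP Ctrl. All miR-9sp mice were thus below all GFP Ctrl mice, a separation that 5.02% of all tested genes showed in that direction. It was the only 1 of the 9 members without overlap, beside 10.2% of all tested genes in either direction. The summed level of 6 microglia markers was also lower in all miR-9sp mice (480 to 498 TPM) than in all GFP Ctrl mice (505 to 523 TPM), with 1 of the 6 markers separating the groups by itself. The 6 neuron markers summed to 3880 to 4150 TPM after miR-9sp and to 3520 to 3890 TPM in GFP Ctrl, with 2 of 6 higher in all miR-9sp mice. The part of these markers in the value of Tnrc6a was not tested. The log2 fold change was -0.09 ± 0.04 (SE), with a 95% interval of -0.17 to 0.00 and an adjusted p of 0.97. The other members with a miR-9 match and 1 entry were Dicer1 and Ago4.

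Dicer1 was at 106.1, 111.2 and 111.4 CPM after miR-9sp and at 110.3, 111.9 and 114.8 CPM in GFP Ctrl (log2 fold change -0.04 ± 0.04, SE). Ago4, the least abundant Argonaute, was at 25.04, 25.21 and 25.32 CPM after miR-9sp and at 24.07, 26.46 and 26.94 CPM in GFP Ctrl (-0.04 ± 0.06). For both genes the groups overlapped.

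Among the members with no miR-9 match, Ago2 spanned 134.3, 152.1 and 166.1 CPM after miR-9sp and 142.3, 144.5 and 153.7 CPM in GFP Ctrl (log2 fold change 0.04 ± 0.07, SE). Ago3 spanned 45.73, 54.44 and 57.77 CPM after miR-9sp and 46.98, 49.95 and 51.60 CPM in GFP Ctrl (0.09 ± 0.08). Dgcr8, the partner of DROSHA, was at 41.75, 48.61 and 50.65 CPM after miR-9sp and at 41.28, 43.30 and 48.14 CPM in GFP Ctrl (0.09 ± 0.08). For Ago2 and Ago3 the miR-9sp mice held both the lowest and the highest value of the experiment, and mouse 9 was the lowest and mouse 23 the highest for each of these 3 genes within miR-9sp. Without mouse 9 the log2 fold change was 0.18 for Ago3 (adjusted p = 0.843) and 0.16 for Dgcr8 (adjusted p = 0.843), and without mouse 23 it was 0.02 for Ago3 and 0.03 for Dgcr8.

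Ago1, the most abundant Argonaute, was at 172.5, 178.0 and 197.4 CPM after miR-9sp and at 185.0, 187.7 and 191.6 CPM in GFP Ctrl (log2 fold change -0.04 ± 0.05, SE). Tnrc6c was at 208.7, 210.8 and 212.9 CPM after miR-9sp and at 196.4, 201.3 and 214.2 CPM in GFP Ctrl (0.05 ± 0.04). The groups overlapped for both. Over the 8 members, the 95% intervals reached from -0.18 (Ago4) to 0.26 (Ago3). These intervals are for 1 gene each and are not adjusted for the number of genes. Choroid plexus markers varied within both groups of this experiment, from 61.5 to 1840 TPM (sum of 7 markers) after miR-9sp and from 213 to 1560 TPM in GFP Ctrl. Their part in these values was not tested.

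**Figure D4:**
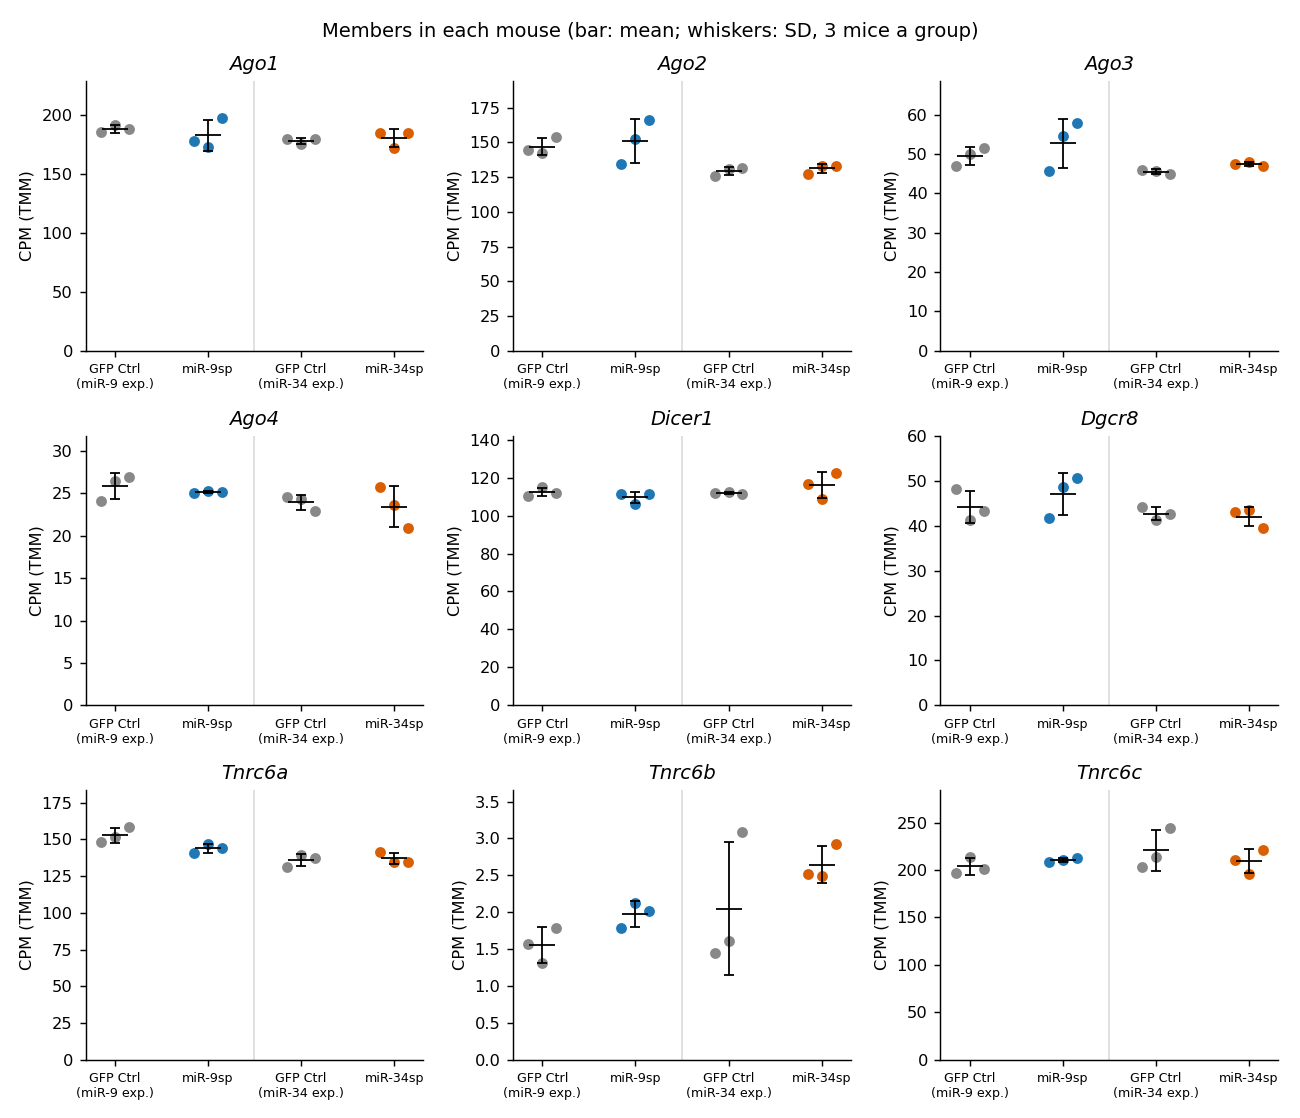
CPM of the 9 members with counts in each mouse (points), with the mean and SD of 3 mice, scaled by TMM within each experiment. Tnrc6a lies at 140.8 to 146.8 CPM after miR-9sp and 148.2 to 158.3 CPM in GFP Ctrl, and for most other genes the groups overlap.

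After miR-34sp injection, again none of the 9 members passed the test. The share of all 12492 tested genes that passed an adjusted p of 0.05 was 0.0640%, or 8 genes, and DESeq2 gave 36 genes, none a member. At an unadjusted p under 0.05 the count was 0 of 9 members, beside 6.43% of all tested genes. Of the 8 members with 1 entry, 5 had a log2 fold change above 0, as had 49.7% of all tested genes, and the values ranged from -0.08 to 0.06, with a median of 0.0141 beside -0.00067 for all tested genes.

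Ago2, the Argonaute with the miR-34 8mer and a further 7mer-m8, was at 127.3, 133.3 and 133.3 CPM after miR-34sp and at 125.7, 130.8 and 131.2 CPM in GFP Ctrl. The groups overlapped and the log2 fold change was 0.02 ± 0.04 (SE), with a 95% interval of -0.07 to 0.11. Ago3, with 1 shorter match, was at 47.03, 47.50 and 47.86 CPM after miR-34sp and at 44.86, 45.62 and 46.00 CPM in GFP Ctrl. Here all miR-34sp mice were above all GFP Ctrl mice, as for 5.80% of all tested genes. It was the only 1 of the 9 members without overlap, beside 11.6% of all tested genes in either direction. The log2 fold change of Ago3 was 0.06 ± 0.05 (SE), with a 95% interval of -0.05 to 0.17 and an adjusted p of 0.916.

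Ago4, with 2 shorter matches, was at 20.93, 23.66 and 25.71 CPM after miR-34sp and at 22.91, 24.30 and 24.59 CPM in GFP Ctrl (log2 fold change -0.02 ± 0.09, SE). Dicer1, with a 7mer-A1, was at 108.9, 116.6 and 122.5 CPM after miR-34sp and at 111.2, 112.1 and 112.5 CPM in GFP Ctrl (0.05 ± 0.05). Both groups overlapped, and the miR-34sp mice were the more spread of the 2 groups for these genes.

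The members with no miR-34 match were in the same range. Ago1 was at 171.5, 184.6 and 184.7 CPM after miR-34sp and at 175.1, 179.4 and 179.5 CPM in GFP Ctrl (log2 fold change 0.02 ± 0.04, SE). Dgcr8 was at 39.54, 43.05 and 43.41 CPM after miR-34sp and at 41.38, 42.59 and 44.19 CPM in GFP Ctrl (-0.02 ± 0.06). Neither gene separated the groups.

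Tnrc6a was at 134.7, 134.9 and 141.5 CPM after miR-34sp and at 131.1, 137.4 and 139.3 CPM in GFP Ctrl (log2 fold change 0.01 ± 0.04, SE). Tnrc6c was at 196.2, 210.7 and 221.0 CPM after miR-34sp and at 203.3, 214.0 and 244.8 CPM in GFP Ctrl (-0.08 ± 0.07). The highest Tnrc6c value of all 12 mice was that of GFP Ctrl mouse 10. The 95% intervals of the 8 members reached from -0.22 (Tnrc6c) to 0.17 (Ago3), or ratios of 0.856 to 1.13.

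The GFP Ctrl mice of the miR-34 experiment held far more RNA of choroid plexus markers, with sums of 1270 to 4800 TPM, than the miR-34sp mice, with 84.1 to 248 TPM. For 5 of the 7 markers all these GFP Ctrl mice lay above all miR-34sp mice. Folr1 was listed at 0 in both groups and Otx2 in the miR-34sp mice. The part of this difference in the values of the members, Ago3 included, was not tested.

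**Figure D5:**
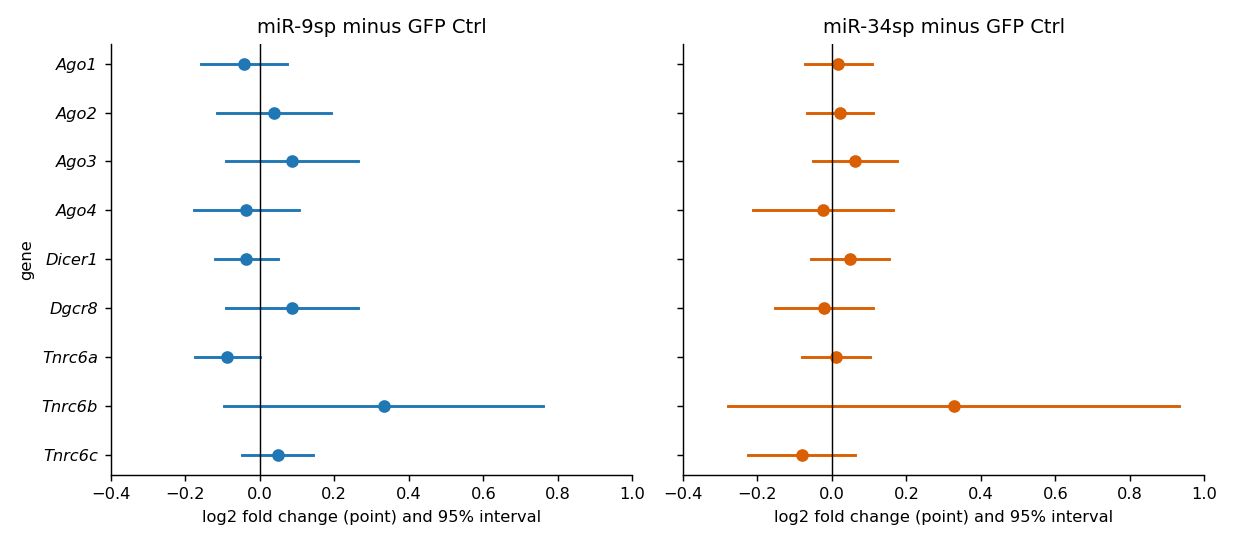
Log2 fold change of the 9 tested members after miR-9sp (left) and miR-34sp (right) relative to GFP Ctrl of the same experiment, with the 95% interval of each gene. The 95% intervals of the 8 members with 1 RefSeq entry lie between -0.22 and 0.26, and that of Tnrc6b, with 16 to 44 counts per mouse, reaches 0.93.

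Tnrc6b, a GW182 gene with the miR-34 8mer shown above, had only 16 to 44 counts per mouse. It was at 1.781, 2.016 and 2.131 CPM after miR-9sp and at 1.305, 1.571 and 1.790 CPM in GFP Ctrl (log2 fold change 0.33 ± 0.19, SE, adjusted p = 0.97). It was at 2.491, 2.520 and 2.929 CPM after miR-34sp and at 1.452, 1.614 and 3.084 CPM in GFP Ctrl (0.33 ± 0.28, adjusted p = 0.917). Without GFP Ctrl mouse 10, which held the 3.084 CPM, the value was 0.77 (adjusted p = 0.433), and without GFP Ctrl mouse 4 or mouse 8 of that experiment it was 0.14 or 0.17. Both groups overlapped in both experiments, and the 95% intervals of -0.10 to 0.76 and -0.28 to 0.93 are too wide to say whether the gene changed. How many of its reads were left out of the counts is unknown.

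The sponge effects themselves were compared in 1 model of all 12 mice. The share of the 12835 tested genes whose effect differed at an adjusted p of 0.05 was 0%, and 5 genes passed with DESeq2, none a member. At an unadjusted p under 0.05 there were 0 of 9 members, beside 6.10% of all tested genes. The member with the lowest p was Tnrc6a, whose log2 fold change was 0.10 lower after miR-9sp than after miR-34sp (difference -0.10 ± 0.05, SE, 95% interval -0.21 to 0.02, adjusted p = 0.828). Of the 9 members, 0 moved in opposite directions with the groups apart in both experiments, beside 0.577% of all tested genes. With a share this small, a count of 0 says little about the members.

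The members varied little between mice of 1 group. Over the 32 values of 8 members in 4 groups, the coefficient of variation of TPM was 3.8% in the median. It ranged from 0.926% for Tnrc6c to 11.7% for Ago3, both after miR-9sp. The biological coefficient of variation that edgeR fitted was 0.038 to 0.0682 for these members in the miR-9 experiment, beside a common value of 0.0613. In the miR-34 experiment it was 0.0342 to 0.0591, beside 0.0516.

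The members did not vary as a block within groups. Over the 12 mice, after centring each gene on its group mean of log2 CPM, 19 of the 28 pairs of the 8 members had a Pearson's r above 0, with a median of 0.0952 and a range of -0.548 to 0.869. These pairs share libraries and scaling, and the values are a description.

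The genes whose centred pattern was most like the mean of the members were sought among 5469 genes with a mean log2 CPM of at least 5. For the mean of the 9 tested members they were Gsto1 (r = 0.907 over 12 mice, Spearman's rho = 0.923), Iars (r = 0.894), Osbpl11 (r = 0.879), Pcf11 (r = 0.877) and Irs2 (r = 0.872). That mean followed Tnrc6b, the gene with few counts, at r = 0.793. For the 8 members with 1 entry the genes were others, namely Trrap (r = 0.969, rho = 0.958), Vhl (r = 0.934), Kalrn (r = 0.915), Lrp1b (r = 0.914) and Smg1 (r = 0.911). Without the 2 mice farthest from the median, r was 0.856 for Gsto1 and 0.949 for Trrap. The 5 genes with the largest r out of 5469 are a description of these mice, and no p is given.

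Far more genes passed the test between the 2 sets of GFP Ctrl mice than between sponge mice and their own controls. The share of the 12835 tested genes with an adjusted p under 0.05 was 25.2%, in which experiment, library preparation and sequencing run cannot be told apart. Of the 9 members 2 passed, 1 higher in the miR-9 experiment, beside 10.2% of all tested genes, and 1 lower, beside 15.1%. Tnrc6a was at 144.8, 149.3 and 155.2 CPM in GFP Ctrl of the miR-9 experiment and at 133.8, 140.2 and 141.9 CPM in GFP Ctrl of the miR-34 experiment, all scaled together. These groups did not overlap, which held for 40.3% of all tested genes. Among the members it also held for Ago2, whose values follow below, and for Dicer1. Dicer1 was at 107.8, 109.8 and 112.9 CPM in the miR-9 experiment and at 113.4, 114.3 and 114.5 CPM in the miR-34 experiment. Tnrc6a was higher in GFP Ctrl of the miR-9 experiment than in that of the miR-34 experiment by a log2 fold change of 0.11 ± 0.04 (SE, adjusted p = 0.0465). Tnrc6c was at 191.9, 197.3 and 210.7 CPM in the former and at 207.4, 217.9 and 249.8 CPM in the latter, with overlap, and was lower by a log2 fold change of -0.17 ± 0.06 (adjusted p = 0.0496). The same GFP Ctrl groups also differed in cell type markers, since the summed levels in the miR-9 experiment and in the miR-34 experiment were 3520 to 3890 and 3200 to 3230 TPM for neurons, 483 to 514 and 352 to 412 TPM for CA1, and 505 to 523 and 414 to 450 TPM for microglia. Of these markers, 4 of 6, 2 of 3 and 4 of 6 were higher in all mice of the miR-9 experiment, and 1 microglia marker was lower. Their part in the values of Tnrc6a and Tnrc6c was not tested.

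Both calls lay at the limit. Tnrc6a stayed under 0.05 in 5 of 12 fits that left out 1 mouse, with an adjusted p of up to 0.184 and log2 fold changes of 0.09 to 0.14. Tnrc6c did so in 4 of 12, with an adjusted p of up to 0.266 and log2 fold changes of -0.23 to -0.09. Without GFP Ctrl mouse 10 of the miR-34 experiment the log2 fold change of Tnrc6c was -0.09, the smallest of these. With the RLE size factors the Tnrc6c call was lost at a similar log2 fold change of -0.16 (adjusted p = 0.067), and scaling by total counts alone gave a log2 fold change of -0.10 (adjusted p = 0.221). Tnrc6a passed under each of the 5 other settings, between 0.12 and 0.18. Ago2 was at 140.0, 141.2 and 150.7 CPM and at 128.2, 133.2 and 133.9 CPM in these groups (log2 fold change 0.13 ± 0.06, SE, adjusted p = 0.138). It passed only with total counts (0.20, adjusted p = 0.0159) and without miR-9sp mouse 9 (0.13, adjusted p = 0.0455) or mouse 23 (0.15, adjusted p = 0.0347).

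The partners of these proteins were read from 7 lists of 62 genes in all, chosen from general knowledge of the pathway. After miR-9sp, 0 of 47 tested genes passed an adjusted p of 0.05 and 1 was higher at an unadjusted p under 0.05, beside 2.47% of all genes. That gene was Pum2, a Pumilio RNA-binding protein, with 6 RefSeq entries and levels of only 1.69, 1.88 and 2.19 TPM after miR-9sp and 1.32, 1.46 and 1.71 TPM in GFP Ctrl (log2 fold change 0.37, adjusted p = 0.97). After miR-34sp, 0 of 46 passed the adjusted test, and 5 were higher and 2 lower at an unadjusted p under 0.05, beside 2.71% and 3.72% of all genes. The median log2 fold change over the lists was -0.0046 after miR-9sp and 0.0165 after miR-34sp, beside -0.0006 and -0.0007 for all tested genes. It was above 0 for 23 of 47 and 28 of 46 list genes. Single lists could go apart. In the deadenylation list 1 of 8 genes was above 0 after miR-9sp (median -0.0528) and 8 of 8 after miR-34sp (median 0.0865). Of the chaperones 4 of 5 and 1 of 5 were above 0. Of the Microprocessor partners and nuclear factors 2 of 7 and 6 of 7 were. Of the other RISC-associated proteins 8 of 10 and 3 of 9 were. The counts were 3 of 4 and 2 of 4 for export and Dicer partners, and 1 of 5 and 3 of 5 for tailing and decay. For decapping they were 4 of 8 and 5 of 8. Among all tested genes 49.7% were above 0 after either sponge. The deadenylation and chaperone lists were picked out after their values were seen, and no list was tested.

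Of the Microprocessor partners and nuclear factors, Ddx17 had the lowest p after miR-34sp. It encodes a DEAD-box helicase that binds the Microprocessor, and has 4 RefSeq entries. It was at 85.4, 88.1 and 90.1 TPM after miR-34sp and at 57.8, 73.4 and 74.1 TPM in GFP Ctrl, with no overlap (log2 fold change 0.35 ± 0.08, SE, adjusted p = 0.293). In the miR-9 experiment its groups overlapped, and the lowest p of that list was that of Khsrp, a KH-domain RNA-binding protein, at 130, 131 and 138 TPM after miR-9sp and 128, 130 and 131 TPM in GFP Ctrl. The list for export and Dicer partners had its lowest p for Tarbp2, the partner of DICER1, which has 2 RefSeq entries and few counts, 285 over all 12 mice. After miR-9sp it was at 1.13 ± 0.14 TPM, beside 0.657 ± 0.283 TPM in GFP Ctrl (log2 fold change 0.75 ± 0.35, SE, adjusted p = 0.97). After miR-34sp it was at 4.51 ± 0.415 TPM, beside 3.53 ± 0.575 TPM (0.36 ± 0.20, SE, adjusted p = 0.831). In TPM the groups did not overlap in either experiment. In CPM this held for 10.2% of all tested genes in the miR-9 experiment and 11.6% in the miR-34 experiment. Between the GFP Ctrl groups Tarbp2 was lower in the miR-9 experiment (-2.53 ± 0.27, SE, adjusted p = 3.7e-06), as were 15.1% of all tested genes.

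The chaperones that help load Argonaute were among the genes that differed between the experiments. In the comparison of the GFP Ctrl groups 4 of 5 were lower in the miR-9 experiment, beside 15.1% of all tested genes in that direction. Hsp90aa1, an inducible HSP90, was at 907 to 955 TPM in GFP Ctrl of the miR-9 experiment and at 1820 to 1960 TPM in GFP Ctrl of the miR-34 experiment (log2 fold change -1.19 ± 0.04, SE, adjusted p = 1.438e-12). The constitutive HSP70 gene Hspa8 was at 1520 to 1630 TPM and at 3000 to 3150 TPM (-1.15 ± 0.04, adjusted p = 1.049e-12). Neither gene passed the adjusted test within an experiment. Hspa8 was at 2870 to 3020 TPM after miR-34sp (log2 fold change -0.08, adjusted p = 0.772), and Hsp90aa1 at 931 to 986 TPM after miR-9sp (0.07, adjusted p = 0.97).

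In the lists of RNA decay, Xrn2 and Pabpc1 had the lowest p after miR-34sp in their lists. Xrn2 encodes a nuclear exonuclease and Pabpc1 the poly-A binding protein that the GW182 proteins contact. Xrn2 was at 70.1, 71.3 and 71.4 TPM after miR-34sp and at 64.4, 64.6 and 66.9 TPM in GFP Ctrl (log2 fold change 0.11 ± 0.04, SE, adjusted p = 0.701). Pabpc1 was at 372, 386 and 394 TPM after miR-34sp and at 349, 357 and 366 TPM in GFP Ctrl (0.09 ± 0.04, adjusted p = 0.704). Neither pair of groups overlapped, and neither gene passed the adjusted test. In CPM, all miR-34sp mice lay above all GFP Ctrl mice for 5.80% of all tested genes. Both genes were picked for the lowest p of their list, which favours such a separation.

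The deadenylase subunit Pan3 was at 38.1 ± 1.12 TPM after miR-9sp and 35.9 ± 1.5 TPM in GFP Ctrl (adjusted p = 0.97). The decapping enzyme Dcp2 was at 58.0 ± 2.01 TPM after miR-9sp and 56.2 ± 1.69 TPM in GFP Ctrl (adjusted p = 0.97). The decapping scaffold Edc4 was at 56.4 ± 1.64 TPM after miR-34sp and 53.1 ± 2.86 TPM in GFP Ctrl (adjusted p = 0.902). Limd1, a LIM protein that binds Argonaute, was at 11.2 ± 1.03 TPM after miR-34sp and 13.0 ± 0.795 TPM in GFP Ctrl (log2 fold change -0.21, adjusted p = 0.714). The deadenylase scaffold Cnot1 and the helicase Ddx6, each with 3 RefSeq entries, were listed at 0 in all 12 mice, as Drosha was.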

How the data were processed

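The deposited values are raw counts of reads per RefSeq entry and mouse, made by the authors from 50 bp single end reads of poly-A enriched libraries. Beside them the deposited tables hold one other value, the entry length in bases. The methods name mm9, the submitters' processing notes name mm10 and STAR, and the counting rule and strand setting are not given in the sources used here. Of 32850 entries, 98.7% were joined to a gene symbol by RefSeq name, and entries were summed per symbol. Genes with a mean above 10 scaled counts were tested with edgeR 4.0.16 (R 4.3.3; TMM, quasi-likelihood test, Benjamini-Hochberg over all genes), per experiment for the sponges and in 1 model of 12 mice otherwise. No covariate was used. TPM was the sum of count over length, scaled to a common sum. DESeq2 1.42.0 and the other settings described at the end were alternatives. The code was tested on simulated data. Levels and plots used Python 3.11.15 with pandas 2.3.3, scipy 1.17.1 and matplotlib 3.10.9. Named genes were all members, the gene with the lowest p of each list in each sponge comparison, and the 5 genes most alike in pattern. Cnot1 and Ddx6 were added after their values were seen. Members and lists were chosen with earlier results of these data known. PCR copies could not be told apart, and intervals cover only the spread between these mice.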

Additional observations from a re-analysis of the deposited data

Results flagged for a closer look

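Of the genes named here, 2 had all sponge mice on one side of GFP Ctrl in one experiment and on the other side in the other experiment. Xrn2 was lower after miR-9sp (68.4, 69.3 and 71.2 TPM, beside 73.2, 74.3 and 76.2 TPM) and higher after miR-34sp, with a difference between the sponge effects of -0.194 on the log2 scale. Pabpc1 was lower after miR-9sp (271, 285 and 285 TPM, beside 290, 302 and 306 TPM) and higher after miR-34sp, with a difference of -0.174. Neither difference passed edgeR's test over all genes (adjusted p = 0.704 for both). Such opposite groups were shown by 0.577% of the 12835 tested genes, 0 of 9 members and 2 of 47 tested list genes (4.26%). Both genes were named because they had the lowest p of their list in a sponge comparison. A count among named genes is therefore selected and cannot be compared with the share of all genes.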

How the results depend on the processing

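No paired analysis was possible because the groups compared share fewer than 2 mouse numbers. The alternatives were DESeq2, RLE size factors, total counts, no filter on low counts, RefSeq entries tested separately, 1 model of 12 mice, the study's own criterion and leaving out each mouse. For both sponges and their difference, 0 members were called under each of these that was run for them, and the lowest adjusted p of a member after either sponge was 0.433 (Tnrc6b, without GFP Ctrl mouse 10 of the miR-34 experiment). At an unadjusted p under 0.05, 1 of 9 members passed after miR-9sp under 2 of 6 other settings of edgeR or DESeq2, and 0 to 2 passed without 1 mouse. After miR-34sp 0 passed under 6 such settings, and without 1 mouse only Tnrc6b did, without GFP Ctrl mouse 10 (edgeR's unadjusted p = 0.0104). For the sponge difference, 0 or 1 passed under 5 such settings and 0 or 1 without 1 mouse. In the main fits 4.73%, 6.43% and 6.10% of all tested genes passed this limit. Their shares under the other settings were not counted. Every sponge log2 fold change kept its sign under the settings that used all mice. Without 1 mouse, it ranged across 0 for Ago2 after miR-9sp (-0.036 to 0.115) and, after miR-34sp, for Ago1 (-0.00126 to 0.0534), Ago4 (-0.093 to 0.0441), Dgcr8 (-0.0461 to 0.0182), Tnrc6a (-0.012 to 0.0291) and Tnrc6c (-0.134 to 0.00226). Between the GFP Ctrl groups, the 2 member calls became 1 with DESeq2, RLE size factors or separate entries, and 0 to 2 without 1 mouse. Over all genes, the 3239 calls of 12835 (25.2%) became 2895 with DESeq2 and 3249 with RLE size factors. They were 3350 of 13193 with separate entries and 2465 to 3442 without 1 mouse. Tnrc6a was not called without GFP Ctrl mice 8 or 16 of the miR-9 experiment, GFP Ctrl mice 4, 8 or 10 of the miR-34 experiment, or miR-34sp mice 13 or 18. Tnrc6c was not called without GFP Ctrl mice 2 or 16 of the miR-9 experiment, GFP Ctrl mice 8 or 10 of the miR-34 experiment, any of the 3 miR-9sp mice, or miR-34sp mouse 3. The cause was not tested. Of 7 neighbour pairs that differed in level, the number stayed at 7 under each other setting except without miR-34sp mouse 3 (8) and, chosen after seeing the data, with only members of 1 entry (6 of 7 pairs) and within each experiment (6 of 8). Over all genes, the 8 calls after miR-34sp became 36 with DESeq2, 81 without the filter, 4 with RLE size factors, total counts or separate entries, 0 in 1 model of 12 mice, 57 without GFP Ctrl mouse 10 and 0 or 1 without any other mouse. After miR-9sp there were 0 to 2 calls with edgeR or DESeq2, and for the sponge difference 5 with DESeq2 and 4 without the filter. The study's own criterion, which does not adjust p, was applied here to counts summed per symbol. It called 188 of 13083 genes (1.44%) after miR-9sp and 250 of 12502 genes (2%) after miR-34sp. These are not the paper's own results, which give fewer altered genes and a smaller share for each of these sponges. Why the results differ was not tested. In the unpaired t-test of that criterion, Tnrc6a after miR-9sp (ratio 0.927, unadjusted p = 0.0413) was under 0.05. So was Ago3 after miR-34sp (ratio 1.046, unadjusted p = 0.0145). Neither reached the criterion's ratio limit of 1.2 in either direction. The share of all genes under 0.05 in that t-test alone was not counted. A count of 0 allows up to 1.74e-05% of a library's counts (miR-9 experiment) or 2.72e-05% (miR-34 experiment), taking 3 counts as the limit, which does not hold for genes such as Drosha if their reads were left out of the counting.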
